A study of Rattus norvegicus with 18 samples.

Results

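The ErbB receptors and the growth factors that bind them were followed in the prefrontal cortex (PFC) of rat pups. The gene set held 10 members, chosen by symbol, of 32623 genes listed in each of the 18 libraries: the receptors Egfr, Erbb2, Erbb3 and Erbb4, the neuregulins Nrg1, Nrg2 and Nrg3, and the EGF-type ligands Tgfa, Hbegf and Btc. Each member matched exactly 1 row. The study asked how oxycodone given to the mother alters the offspring. All libraries came from Sprague Dawley pups at P14 (postnatal day 14), 6 per group, with bulk PFC tissue sequenced as 1 pool on 1 flow cell. In the saline group (SAL) the dams received vehicle by oral gavage. In the postnatal group (PNO) they received oxycodone at 15 mg/kg/day only from birth of the litter onward, so the pups were exposed through milk. In the in utero group (IUO) dosing began before mating at 10 mg/kg/day, was raised to 15 mg/kg/day and went on through gestation and nursing, so IUO pups were exposed before and after birth, and no group was exposed before birth alone. The labels tie no pup to a litter, a dam or a sex, so p-values measure the spread between these pups, which may include littermates.

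ErbB receptors are tyrosine kinases of the cell surface. A ligand brings a pair of them together, the pair phosphorylates itself, and the signal runs on through the MAP kinase and PI3 kinase/Akt cascades. ErbB2 binds no known ligand and acts as a partner for the others, and ErbB3 has little kinase activity of its own and relies on such a partner. The neuregulins Nrg1 and Nrg2 bind ErbB3 and ErbB4, and Nrg3 binds ErbB4. Tgfa binds EGFR, and Hbegf and Btc bind EGFR and ErbB4. In the cortex ErbB4 is best known from inhibitory interneurons, where neuregulin signalling shapes the synapses they receive, and neuregulin signalling also acts on the oligodendrocyte lineage and on glia.

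None of the 10 members differed between groups past the adjusted threshold in any of the 3 comparisons (edgeR quasi-likelihood test, Benjamini-Hochberg adjusted p under 0.05 over 15703 genes tested). All 10 passed the filter on low counts. The receptors Erbb2 and Erbb3 came nearest, both lower in IUO. Erbb4 had the widest spread between pups of the members, with single pups far above the rest of SAL and of PNO. The receptors Erbb4 and Egfr and the ligand Nrg1 rose and fell together across the 18 pups.

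The promoters of Erbb4 and Egfr are shown because these genes moved together across pups (Pearson r = 0.88, n = 18). The windows run from 250 bases before to 50 bases after the transcript start in RefSeq (build GRCr8), and 8 of the 10 members matched that table, all but Erbb3 and Nrg1. Erbb4 lies at chr9:78045557-78045856 on the minus strand and Egfr at chr14:95378376-95378675 on the plus strand. Capitals mark the GC box letters GGGCGG, searched on both strands, which in these windows stand on the opposite strand.
Erbb4: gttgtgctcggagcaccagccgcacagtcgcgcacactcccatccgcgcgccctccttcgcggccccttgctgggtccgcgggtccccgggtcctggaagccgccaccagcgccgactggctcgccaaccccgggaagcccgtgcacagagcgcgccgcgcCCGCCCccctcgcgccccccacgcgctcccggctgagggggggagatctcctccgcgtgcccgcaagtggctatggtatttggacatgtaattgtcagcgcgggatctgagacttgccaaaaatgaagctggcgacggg
Egfr: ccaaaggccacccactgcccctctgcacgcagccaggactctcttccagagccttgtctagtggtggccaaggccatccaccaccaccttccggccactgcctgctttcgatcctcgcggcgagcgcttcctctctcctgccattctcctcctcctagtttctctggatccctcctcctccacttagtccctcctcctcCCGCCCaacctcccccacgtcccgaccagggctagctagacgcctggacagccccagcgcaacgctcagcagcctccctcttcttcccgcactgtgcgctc

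The GC box begins 89 bases before the start in Erbb4 and 51 bases before it in Egfr. It was found in 7 of the 8 member windows, all but that of Hbegf, and in 33.1% of the 33469 promoter windows of this length. The TATA box letters TATAAA, also searched on both strands, were in none of the 8 member windows and in 14.2% of all windows. The Erbb4 window is 70.3% G and C with 35 CpG dinucleotides, the Egfr window 64.3% with 15, against medians of 51.7% and 7 over all windows. These matches describe the letters and do not show that a factor binds there.

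Library totals ran from 18381819 to 26084780 expected counts with a median of 22726306. The 45 pairs of pups within a group differed from each other by more than counting error, and none held identical values. Over all genes, edgeR called 0 for PNO against SAL and 706 had an unadjusted p under 0.05, while DESeq2 called 1 and limma-voom with sample quality weights 0. For IUO against SAL edgeR called 0, with 1081 at an unadjusted p under 0.05, DESeq2 49 and limma-voom 43. When IUO was set against PNO, edgeR called 10, with 2400 at an unadjusted p under 0.05, DESeq2 436 and limma-voom 2028. None of the 3 tools called a member. The members are known to differ by cell type, and in bulk tissue fewer cells of a type and less RNA per cell cannot be told apart.

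Levels of different genes were compared per transcript length, in TPM, the deposited unit that divides by transcript length and library size. Nrg3 was highest with a mean of 20.6 ± 6.1 TPM (SD, n = 18), followed by Tgfa at 10.9 ± 4.8, Hbegf at 5.4 ± 0.81 and Nrg2 at 4.24 ± 0.93. Erbb3 was the highest receptor at 3.72 ± 1.41 TPM, ahead of Erbb4 at 2.80 ± 2.95. Nrg1 stood at 2.54 ± 0.97, Egfr at 1.72 ± 0.85, Btc at 1.15 ± 0.34 and Erbb2 at 1.09 ± 0.33 TPM. The steps from Nrg3 to Tgfa, Tgfa to Hbegf and Hbegf to Nrg2 exceeded the larger SD of the genes compared, with the higher gene ahead in 16, 16 and 17 of 18 pups. From Nrg2 down, each neighbour in the order differed by less than that SD, although Nrg1 was above Egfr in 18 of 18 pups, Egfr above Btc in 15, and Nrg2 above Erbb3 and Erbb3 above Erbb4 in 13 each. Erbb4 stood above Nrg1 by its mean but was the higher of the pair in only 5 of 18 pups, with a median of 1.75 TPM against 2.42. The transcript length behind the Nrg3 value is short, 1065 bases against 2627 for Nrg2 and 3637 for Nrg1, which raises its TPM relative to its counts.

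Spread between pups of the same group differed widely over the set. The within-group SD of Erbb4 was 1.07 on the log2 scale, larger than in 97.3% of all genes tested, whose median SD was 0.25. Tgfa (0.61, 88.3%) and Egfr (0.57, 86.1%) also varied more than most genes. Hbegf was the steadiest member with an SD of 0.19, larger than in 32.2% of genes, and Nrg2 came next with 0.23 and 43.0%. Among genes within 0.5 of the member's mean log2 CPM the shares were 97.3% for Erbb4, 96.7% for Tgfa and 79.8% for Egfr. For Nrg2 and Hbegf they were 26.4% and 17.0%. SAL pup 6 had the highest level of all 18 pups for 5 of the 10 members, Egfr, Erbb2, Erbb3, Erbb4 and Nrg1, so comparisons of these 5 with SAL are also given without it.

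**Figure D1:**
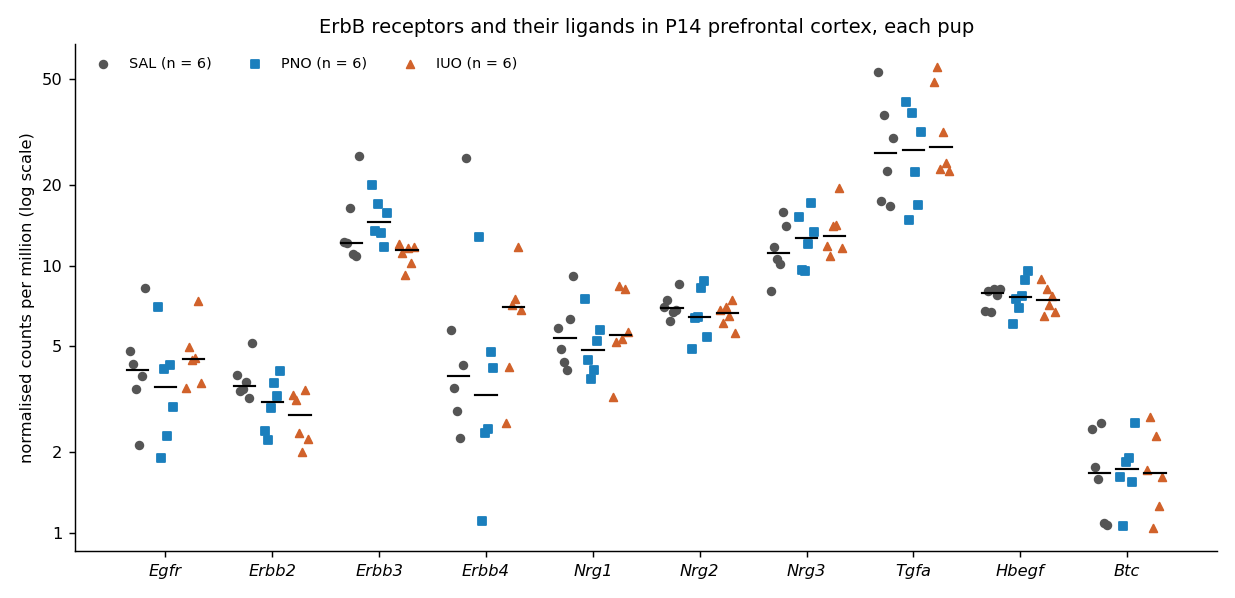
Normalised CPM (log axis) of the 10 members in each pup, with a horizontal line at the group median and 6 pups per group. The groups overlap for each member, and the Erbb4 value of SAL pup 6 (25.3) stands far above the other SAL pups.

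The receptor Erbb2, the partner that binds no ligand itself, had a higher level in SAL than in the other groups. In CPM, counts scaled by the normalised library size, its lowest, median and highest SAL values were 3.19, 3.55 and 5.11. The PNO values were 2.21, 3.09 and 4.04, and the IUO values 2.003, 2.75 and 3.43. All 6 IUO pups lay under the SAL median and 4 of them under every SAL pup, yet the ranges overlapped. The IUO level was 0.47 lower than SAL on the log2 scale (log2 fold change -0.47 ± 0.18 SE, 95% interval -0.85 to -0.08), with an unadjusted p of 0.0199 and an adjusted p of 0.626 by edgeR. PNO was at -0.30 ± 0.18 against SAL (adjusted p = 0.912, edgeR). The direct comparison of IUO with PNO gave -0.17 ± 0.18 (adjusted p = 0.675, edgeR). Without SAL pup 6 the difference of IUO from SAL was -0.36 with an unadjusted p of 0.0607 by edgeR, and that of PNO -0.19. With limma-voom Erbb2 was -0.57 in IUO against SAL (unadjusted p = 0.00157, adjusted p = 0.0866), -0.12 in PNO against SAL (adjusted p = 0.846) and -0.45 in IUO against PNO (unadjusted p = 0.0141, adjusted p = 0.0731). Erbb2 is also a low gene, with 42 to 124 counts per pup.

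Erbb3, the receptor with little kinase activity of its own, was lower in IUO than in either other group. Its SAL values were 10.9 CPM at the lowest, 12.2 at the median and 25.8 at the highest. In PNO they were 11.7, 14.6 and 20 CPM, and in IUO 9.21, 11.4 and 12.01 CPM. The IUO pups lay close together, all 6 under the medians of SAL and PNO, with 5 of 6 PNO pups above every IUO pup. Against PNO the log2 fold change was -0.47 ± 0.19 SE (95% interval -0.87 to -0.06, unadjusted p = 0.0248, adjusted p = 0.260, edgeR). Against SAL it was -0.42 ± 0.19 (95% interval -0.83 to -0.02, unadjusted p = 0.0390, adjusted p = 0.705, edgeR). PNO and SAL differed by 0.04 ± 0.19 (adjusted p = 0.975, edgeR). The comparison with SAL rested on SAL pup 6, at 25.8 CPM, since without it the fold change of IUO was -0.20 with an unadjusted p of 0.184 by edgeR, and that of PNO 0.27 (unadjusted p = 0.0713, edgeR). The comparison with PNO ranged from -0.54 to -0.38 when single pups were left out.

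The unadjusted results are to be read against all genes. For IUO against SAL, 2 of the 10 members (Erbb2 and Erbb3) had an unadjusted p under 0.05 by edgeR, where 6.88% of all genes tested did. When IUO was set against PNO it was 1 of 10 (Erbb3) where 15.3% of all genes did, and for PNO against SAL 0 of 10 where 4.5% did. At the adjusted threshold 0% of genes were called in PNO against SAL, 0% when IUO was compared with SAL, and 0.0637% when it was compared with PNO, and none of the members was among them. No member had groups whose pups did not overlap, which held for 0.108%, 0.745% and 1.66% of genes in the same order. The comparisons share groups, so a pup that stands apart enters more than 1 of them.

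Erbb4, the neuregulin receptor of interneurons, differed more between pups than between groups. Its lowest, median and highest SAL values were 2.26, 3.85 and 25.3 CPM. The PNO values were 1.11, 3.29 and 12.8 CPM, and the IUO values 2.57, 6.98 and 11.7 CPM. SAL pup 6 and PNO pup 1 stood above the rest of their groups, and 5 of 6 IUO pups lay above the medians of SAL and PNO. The fitted differences had wide intervals. IUO against PNO was 0.53 ± 0.61 SE (95% interval -0.78 to 1.83, adjusted p = 0.696, edgeR), PNO against SAL -0.66 ± 0.61 (adjusted p = 0.912, edgeR) and IUO against SAL -0.14 ± 0.60 (adjusted p = 0.996, edgeR). Single pups set these values. Without SAL pup 6, PNO against SAL turned to 0.31 and IUO against SAL to 0.83 with an unadjusted p of 0.109 by edgeR. Without PNO pup 1, PNO against SAL was -1.32 (unadjusted p = 0.0414, adjusted p = 0.536, edgeR) and IUO against PNO 1.16 (unadjusted p = 0.0668, adjusted p = 0.263, edgeR). With limma-voom Erbb4 was 0.78 in IUO against SAL (unadjusted p = 0.0413, adjusted p = 0.268) and 1.16 in IUO against PNO (unadjusted p = 0.0111, adjusted p = 0.0645). With the myelin covariate described further on, IUO against PNO turned to -0.66.

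Egfr, the receptor of Tgfa and of EGF itself, had lowest, median and highest values of 2.12, 4.06 and 8.24 CPM in SAL. In PNO these were 1.90, 3.52 and 6.99 CPM, and in IUO 3.49, 4.47 and 7.37 CPM. The highest pup of each group was the same as for Erbb4, SAL pup 6, PNO pup 1 and IUO pup 5, and the groups overlapped. IUO against PNO was 0.33 ± 0.32 SE (95% interval -0.35 to 1.02, adjusted p = 0.635, edgeR), 0.61 without PNO pup 1 (unadjusted p = 0.0628, edgeR), 0.16 without IUO pup 5 and 0.019 with the myelin covariate. PNO against SAL was -0.24 ± 0.32 (adjusted p = 0.919, edgeR) and IUO against SAL 0.09 ± 0.32 (adjusted p = 0.996, edgeR). Without SAL pup 6 these were 0.021 and 0.35 (unadjusted p = 0.945 and 0.257, edgeR). The paper counts Egfr among the glutamatergic synapse genes that changed in its exposed groups. Its criterion for the gene counts was a 1.5-fold change and p under 0.05, with no adjustment named there. Here the fold of Egfr was 1.26 in IUO against PNO, 0.84 in PNO against SAL and 1.06 in IUO against SAL.

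**Figure D2:**
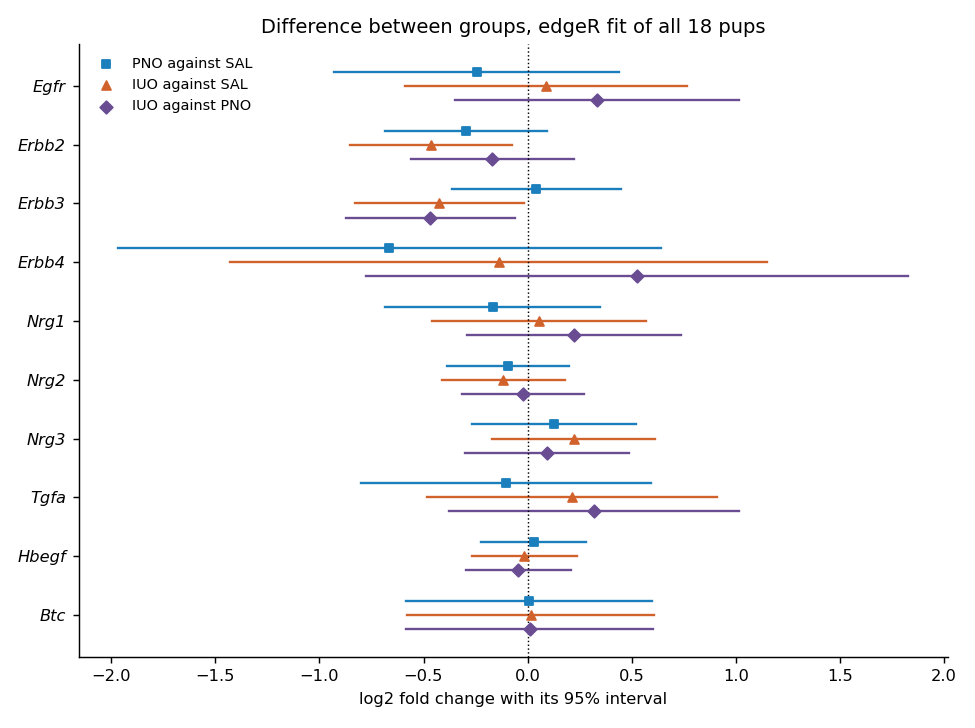
Log2 fold change of each member with its 95% interval for the 3 comparisons, from the edgeR fit of all 18 pups. The intervals of Erbb2 in IUO against SAL and of Erbb3 in both comparisons of IUO end below 0 without adjustment over genes, those of Erbb4 are the widest, and those of Hbegf the narrowest.

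Among the neuregulins, Nrg1, which binds ErbB3 and ErbB4, had lowest, median and highest values of 4.07, 5.37 and 9.11 CPM in SAL. The PNO values were 3.77, 4.82 and 7.52 CPM and the IUO values 3.22, 5.48 and 8.36 CPM. SAL pup 6 and PNO pup 1 were again the highest of their groups, and IUO held both the lowest pup of all and 2 pups above every PNO pup. IUO against PNO was 0.22 ± 0.24 SE (95% interval -0.29 to 0.74, adjusted p = 0.676, edgeR), and the differences from SAL were -0.17 ± 0.24 for PNO and 0.05 ± 0.24 for IUO. Without SAL pup 6 the differences of Nrg1 from SAL were 0.0075 for PNO and 0.23 for IUO (unadjusted p = 0.974 and 0.334, edgeR). Nrg2, which also binds ErbB3 and ErbB4, ran from 6.20 to 8.57 CPM in SAL with a median of 6.93, from 4.89 to 8.74 in PNO with a median of 6.41 and from 5.61 to 7.45 in IUO with a median of 6.64. Its fold changes lay within -0.12 to -0.02 with an SE of 0.14, and the 95% intervals of all 3 comparisons lay between -0.41 and 0.27. Nrg3, a ligand of ErbB4 and the highest member per length, ran from 8.06 to 15.9 CPM in SAL with a median of 11.2. In PNO its values were 9.58, 12.7 and 17.2 CPM and in IUO 10.9, 13.0 and 19.5 CPM, so that 5 of 6 IUO pups lay above the SAL median. The log2 fold change of Nrg3 in IUO against SAL was 0.22 ± 0.18 SE (95% interval -0.17 to 0.61, adjusted p = 0.927, edgeR). It was 0.085 without IUO pup 5, 0.37 with the striatal covariate described further on (unadjusted p = 0.0427, adjusted p = 0.603, edgeR) and 0.070 with the myelin covariate.

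Of the EGF-type ligands, Tgfa, a ligand of EGFR, had the largest counts of the set, 282 to 1139 per pup. Its lowest, median and highest values were 16.8, 26.4 and 53.4 CPM in SAL, 14.9, 27.2 and 41.0 in PNO and 22.6, 27.9 and 55.5 in IUO. The medians lay close together, and SAL pup 1 and IUO pups 1 and 2 stood above all others. IUO against PNO was 0.32 ± 0.33 SE (95% interval -0.38 to 1.02, adjusted p = 0.656, edgeR), and the differences from SAL were -0.10 ± 0.33 for PNO and 0.21 ± 0.33 for IUO. Single pups moved these values. IUO against SAL was 0.018 without IUO pup 2 and 0.46 without SAL pup 1, and IUO against PNO 0.12 without IUO pup 2. Hbegf, a ligand of EGFR and ErbB4, had the narrowest intervals of the members. Its medians were 7.91 CPM in SAL, 7.61 in PNO and 7.41 in IUO, and the 18 pups ran from 6.05 to 9.56 CPM. The Hbegf fold changes were 0.03 for PNO and -0.02 for IUO, each against SAL, and -0.05 for IUO against PNO (SE 0.12), and the intervals of all 3 lay between -0.30 and 0.28 on the log2 scale. Btc, another ligand of those receptors, was the lowest member by counts, with 20 to 59 per pup and medians of 1.67, 1.73 and 1.67 CPM in SAL, PNO and IUO. Its differences were at most 0.015 with an SE of 0.28, and changes of up to 0.6 on the log2 scale remained within the intervals. With the myelin covariate Btc was 0.48 in IUO against PNO, 0.27 in IUO against SAL and -0.22 in PNO against SAL (unadjusted p = 0.151, 0.340 and 0.425, edgeR).

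The other genes of the pathway were read from fixed lists, with counts in place of a test of the list. Of the 5 other EGF family ligands only Egf and Epgn passed the filter on low counts. Ereg had no count in any pup, Areg had 2 to 14 and Nrg4 1 to 7 per pup. Egf, the founding ligand of EGFR, had the smallest p of its list in both comparisons with SAL, at -0.77 ± 0.42 SE in PNO and -0.92 ± 0.42 in IUO (adjusted p = 0.912 and 0.705, edgeR). The mean of Egf was 2.71 ± 2.68 CPM in SAL, 1.59 ± 0.53 in PNO and 1.43 ± 0.49 in IUO (SD, n = 6). SAL pup 6 stood at 8.12 CPM and the other 5 SAL pups between 1.09 and 2.31, within or close to the range of PNO (1.11 to 2.61) and IUO (0.96 to 2.27). Epgn, a further ligand of EGFR, was -0.82 ± 0.29 in IUO against PNO (adjusted p = 0.202, edgeR). All 8 ligand processing enzymes were tested and none was called by edgeR. Their median fold change was -0.10 in IUO against SAL and 0.03 in IUO against PNO, where all genes had medians of -0.01 and 0.00. Adam17, a sheddase that frees Tgfa and Hbegf from the membrane, had the smallest p of these enzymes in PNO against SAL (-0.14 ± 0.10, adjusted p = 0.912, edgeR). Rhbdf1 and Rhbdf2, inactive rhomboids that bring Adam17 to the surface, had the smallest in the others. Rhbdf1 was -0.50 ± 0.18 in IUO against SAL (adjusted p = 0.549, edgeR), where SAL pup 4 stood at 37.8 CPM, the other SAL pups between 15.6 and 24.6 and the IUO pups between 12.9 and 18.6. Rhbdf2 was -0.54 ± 0.23 in IUO against PNO (adjusted p = 0.274, edgeR).

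Of the 34 adaptors and downstream kinases, 33 were found, 1 of them (Grb2) on 2 rows, and none was called by edgeR. In IUO against PNO 26 of these 34 rows had a positive and 8 a negative fold change, with a median of 0.08. In IUO against SAL the split was 21 to 13 and in PNO against SAL 10 to 24, with medians of 0.02 and -0.05. Akt1, a kinase at the end of the PI3 kinase branch, came closest to the threshold of the pathway genes. Its mean was 191.4 ± 11.4 CPM in IUO, 163.9 ± 10.2 in PNO and 168.2 ± 4.8 in SAL (SD, n = 6). The log2 fold change of Akt1 was 0.22 ± 0.05 SE in IUO against PNO (adjusted p = 0.0923, edgeR) and 0.19 ± 0.05 in IUO against SAL (adjusted p = 0.424, edgeR). Jak2, a kinase of the STAT branch, was -0.25 ± 0.11 in PNO against SAL (adjusted p = 0.912, edgeR), with SAL pup 6 at 75.5 CPM, the other SAL pups between 42.9 and 59.3 and the PNO pups between 42.8 and 48.9.

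None of the 18 genes for inhibitors and receptor turnover was called by edgeR. In PNO against SAL 16 of the 18 had a negative fold change, with a median of -0.15, in IUO against PNO 14 had a positive one, with a median of 0.05, and in IUO against SAL the split was 8 positive to 10 negative, with a median of -0.05. Over all genes tested 49.2%, 50.1% and 52.0% had a negative fold change in the same order. Spry1, an inhibitor of MAP kinase signalling, was -0.40 ± 0.16 in PNO and -0.44 ± 0.16 in IUO against SAL (adjusted p = 0.912 and 0.561, edgeR). SAL pup 6 was again the highest for Spry1, at 17.3 CPM, with the other SAL pups between 8.30 and 12.1. Errfi1, which blocks the EGFR kinase, was -0.17 ± 0.08 in IUO against PNO (adjusted p = 0.348, edgeR). The 5 postsynaptic partners of ErbB4, scaffold proteins of the synapse, were likewise not called by edgeR. Sntb2 had the smallest p of these in PNO against SAL (-0.97 ± 0.59, adjusted p = 0.912, edgeR), at a mean of only 0.23 CPM in PNO and 0.47 in SAL.

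Across the 18 pups some of the members shared a pattern. On log2 CPM, Erbb4 correlated with Egfr (r = 0.88) and Nrg1 (r = 0.86), and Egfr with Nrg1 (r = 0.71), as a description over points that share a library and its depth. Erbb2 and Erbb3 stood apart from them, with r from 0.05 to 0.30 against these 3 genes, and had r = 0.35 with each other. The genes most like Erbb4 over the pups were Tenm4, Adarb2 and Insr (r = 0.98, 0.97 and 0.97). Those most like Egfr were Cul5, Setd2 and Tmed8 (r = 0.94, 0.94 and 0.94), and those most like Nrg1 were Vps13d, LOC100911766 and Tmem64 (r = 0.93, 0.91 and 0.91). For Nrg3 they were Pafah1b1, Zfp238 and Lancl2 (r = 0.96, 0.92 and 0.92). Tgfa was most like Ppp4r4, Frmd4b and Dach1 (r = 0.93, 0.91 and 0.90), and Erbb3 most like Rab8b, Marf1 and Gprc5b (r = 0.89, 0.87 and 0.87). Erbb2, Nrg2, Hbegf and Btc had looser matches. They were Rtel1, Mthfs and Sephs1 for Erbb2 (r = 0.81, 0.80 and 0.77), Gfpt2, Disp3 and Fam83f for Nrg2 (r = 0.86, 0.82 and 0.82), Slco2a1 and Ppic for Hbegf (r = 0.81 and 0.76) and Cd44 and Caps2 for Btc (r = 0.83 and 0.81).

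Tenm4 and Insr have mean transcript lengths of 8542 and 6969 bases and Vps13d one of 15150, where the median over all genes tested was 2179. Of the 9 genes most like Erbb4, Egfr and Nrg1, 7 were longer than that median and the lengths ran from 981 to 15150 bases. A contrast of long against short transcripts was therefore computed for each pup, after these patterns were seen. It is the median centred log2 CPM of 1426 genes of at least 5000 bases minus that of 4363 genes under 1500 bases, members left out. It was highest in SAL pup 6 (0.56), PNO pup 1 (0.30) and IUO pup 5 (0.28) and lowest in PNO pup 2 (-0.41). Erbb4 followed it closely over the pups (r = 0.93, Spearman's rho = 0.91), as did Egfr (r = 0.87, rho = 0.84) and Nrg1 (r = 0.81, rho = 0.79). These values are a description with no test, since the contrast was built on what these 3 members had shown in the same pups. Within groups the r of Erbb4 was 0.98 in SAL, 0.94 in PNO and 0.78 in IUO, and without the 2 pups farthest from the median contrast it was 0.87. For Egfr the values within SAL, PNO and IUO were 0.93, 0.80 and 0.85, with 0.78 without those 2 pups, and for Nrg1 0.95, 0.88 and 0.75, with 0.78 without them. Nrg3 also followed the contrast (r = 0.67, rho = 0.74), with 0.51, 0.92 and 0.98 within SAL, PNO and IUO and 0.72 without those 2 pups. Erbb2, Erbb3, Nrg2, Tgfa, Hbegf and Btc had r between -0.34 and 0.27 over the 18 pups. Within groups some of these were high, with r = 0.86, -0.23 and 0.79 for Nrg2 in SAL, PNO and IUO, 0.79, 0.012 and 0.18 for Erbb2 and 0.82, 0.27 and -0.66 for Erbb3. Without SAL pup 6 the r within SAL was 0.37 for Nrg2, -0.39 for Erbb2 and -0.04 for Erbb3, against 0.83 for Erbb4, 0.90 for Egfr, 0.89 for Nrg1 and 0.38 for Nrg3. A member's own mean transcript length did not order these values, since Erbb3, the longest member at 5934 bases, had r = 0.27 and Nrg3, the shortest at 1065 bases, had r = 0.67. The mean contrast was 0.04 ± 0.28 in SAL, -0.11 ± 0.29 in PNO and 0.05 ± 0.13 in IUO (SD, n = 6). With the contrast as a covariate, Erbb4 in PNO against SAL was 0.10 instead of -0.66. That value is also only a description, since the contrast was built on the pattern of Erbb4 in the same pups. Erbb3 in IUO against PNO was -0.58 with this covariate, at an adjusted p of 0.102 by edgeR. What moves the contrast from pup to pup was not tested.

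**Figure D3:**
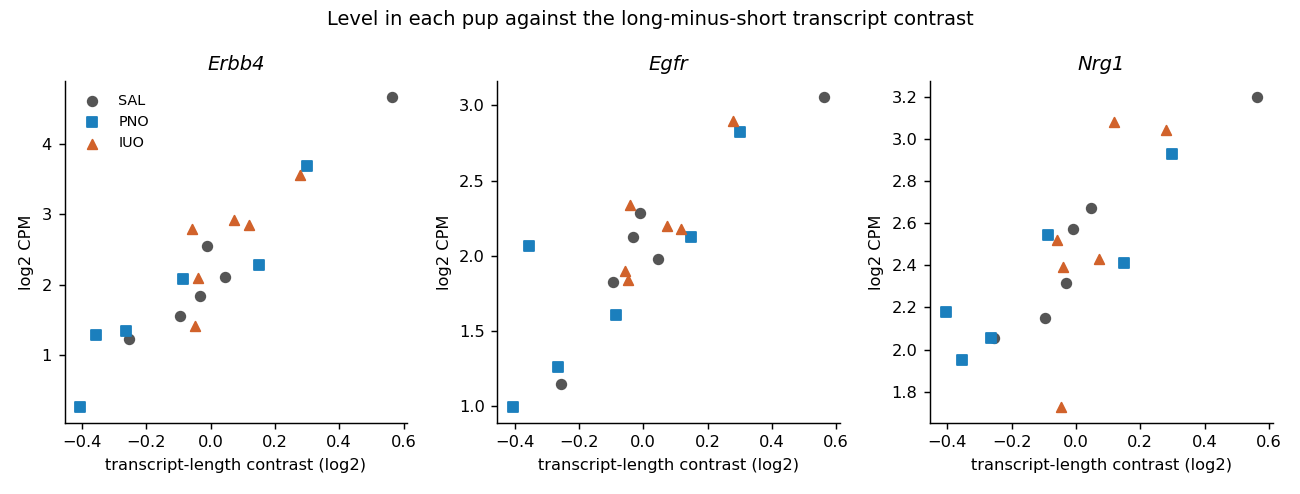
Log2 CPM of Erbb4, Egfr and Nrg1 in each of the 18 pups against the contrast of long minus short transcripts (log2), with colours and shapes for the groups. SAL pup 6 is at the far right (0.56), and each gene rises with the contrast within each of the 3 groups.

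The tissue was checked against marker lists of its cell types, scored per pup as the mean centred log2 CPM. No matched marker gene was at 0 throughout a group. The planned relations were 8. Nrg3 with excitatory neurons was the one with a permutation p under 0.05 after adjustment over the 8 (r = 0.62, adjusted p = 0.047; rho = 0.57, adjusted p = 0.122). It was r = 0.93 within SAL, -0.11 within PNO and 0.87 within IUO, and 0.58 without the 2 pups farthest from the median score, so the relation did not hold in PNO. Erbb4 had r = 0.21 (rho = 0.27) with the interneuron list and -0.12 (rho = -0.01) with striatal neurons. Of the 9 interneuron markers 5 had a positive and 4 a negative fold change in IUO against PNO, and Pvalb, the calcium-binding protein of fast-spiking interneurons, was called. Pvalb was lower in IUO, at 4.43 ± 1.26 CPM against 22.4 ± 8.69 in PNO (log2 fold change -2.34, adjusted p = 0.0356, edgeR), with all 6 IUO pups (2.60 to 5.93) under every PNO pup (10.4 to 33.5). In SAL it was 13.0 ± 8.68 CPM, and IUO against SAL gave -1.55 (adjusted p = 0.343, edgeR). Nrg1 had r = 0.10 (rho = 0.11) with excitatory neurons, and Egfr 0.28 (rho = 0.17) with astrocytes and -0.02 (rho = -0.15) with oligodendrocyte precursors. In these 5 relations the adjusted permutation p for r was 0.70 or above.

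The mature myelin list, which holds the major myelin proteins such as Mbp, was read beside Erbb3. In IUO against PNO 9 of its 9 genes had a negative fold change with an unadjusted p under 0.05 (edgeR, none called after adjustment), with a median of -1.45. In IUO against SAL 9 of 9 were also negative with a median of -0.75, 2 of them with an unadjusted p under 0.05, and in PNO against SAL 9 of 9 were positive with a median of 0.78, again 2 with an unadjusted p under 0.05 (edgeR). Their summed level ran from 1682 to 9164 CPM in SAL, 2853 to 14660 in PNO and 2146 to 5504 in IUO, and no gene of the list was at 0. Over all 18 pups Erbb3 had r = 0.31 with this score (rho = 0.52, adjusted permutation p = 0.70 and 0.122 over the 8 relations). Without the 2 pups farthest from the median score r was 0.77, and within SAL, PNO and IUO it was -0.68, 0.90 and 0.53. The negative value in SAL rested on SAL pup 6, since r was 0.47 in the other 5 SAL pups, a setting chosen after seeing the data. Erbb2 had r = -0.01 (rho = 0.13) with the score, 0.45 without the 2 farthest pups, and -0.75, -0.18 and 0.34 within the groups, with 0.26 in SAL without pup 6. Of the oligodendrocyte precursor list 7 of 7 genes had a negative fold change in IUO against PNO with a median of -0.28, 3 of them with an unadjusted p under 0.05 and none called (edgeR). Their summed level ran from 424.3 to 767.4 CPM in SAL, 500.8 to 904.1 in PNO and 425.3 to 638 in IUO, with none at 0. Erbb3 had r = 0.36 with the precursor score (rho = 0.45, adjusted permutation p = 0.356 for r over the 100 relations of members with marker lists). Within SAL, PNO and IUO that r was -0.60, 0.90 and 0.88, in SAL 0.54 without pup 6, and over all groups -0.04 without the 2 farthest pups. With the myelin score as a covariate, Erbb3 in IUO against PNO was -0.54 (unadjusted p = 0.0474, adjusted p = 0.546, edgeR) and Erbb2 in IUO against SAL -0.52 (unadjusted p = 0.0148, adjusted p = 0.505, edgeR). Erbb4, Egfr and Nrg1 had r = -0.52, -0.41 and -0.51 with the myelin score. The adjusted permutation p for r over the 100 relations was 0.1865, 0.346 and 0.195. Without the 2 farthest pups r was -0.78, -0.60 and -0.70. Within SAL, PNO and IUO it was -0.94, 0.29 and -0.96 for Erbb4, -0.82, 0.31 and -0.53 for Egfr and -0.98, 0.22 and -0.84 for Nrg1.

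Erbb3 was closest to the astrocyte list, a relation chosen after all 100 pairs of members and marker lists were computed. Its r was 0.74 over the 18 pups (rho = 0.75, adjusted permutation p = 0.0177 for r and 0.0235 for rho over the 100), 0.71 without the 2 farthest pups, and 0.78, 0.91 and -0.26 within SAL, PNO and IUO, so it did not hold in IUO. In IUO against PNO 6 of the 7 astrocyte markers had a negative fold change, 3 with an unadjusted p under 0.05 (edgeR) and none called, with a median of -0.29. Their summed level ran from 1595 to 2141 CPM in SAL, 1723 to 2429 in PNO and 1638 to 1966 in IUO, with none at 0. The part of these 3 lists in the lower Erbb3 of IUO pups was not tested beyond the covariate for myelin.

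Tgfa followed the striatal list of Drd1, Drd2, Ppp1r1b and 5 further markers of medium spiny neurons, a cell type of the neighbouring striatum. Its r was 0.76 over the 18 pups (rho = 0.75, adjusted permutation p = 0.0177 for r and 0.0235 for rho over the 100 relations), 0.65 without the 2 farthest pups, and 0.73, 0.62 and 0.99 within SAL, PNO and IUO. SAL pup 1 and IUO pups 1 and 2 had striatal scores of 1.66, 1.53 and 1.87 and Tgfa levels of 53.4, 48.8 and 55.5 CPM. These were the highest 3 pups in both measures. The summed striatal markers ran from 163.1 to 1576 CPM in SAL, 218 to 1330 in PNO and 406.7 to 1909 in IUO, with none at 0, and 8 of the 8 had a positive fold change in IUO against PNO (median 0.84, none with an unadjusted p under 0.05, edgeR). With the striatal score as a covariate the Tgfa difference turned from 0.21 to -0.14 in IUO against SAL and from 0.32 to -0.11 in IUO against PNO. With the myelin score in its place these were 0.40 and 0.89 (unadjusted p = 0.201 and 0.0294, adjusted p = 0.867 and 0.492, edgeR), so the covariates moved Tgfa in opposite directions. Tgfa also rose with the interneuron score (r = 0.71, rho = 0.64, adjusted permutation p = 0.0247 for r and 0.0794 for rho), with r = 0.62 without the 2 farthest pups. The interneuron score was also high in SAL pup 1 (0.37) and IUO pup 2 (0.31), though not in IUO pup 1 (-0.01). The relations of Tgfa with the interneuron and the striatal score were not separated.

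**Figure D4:**
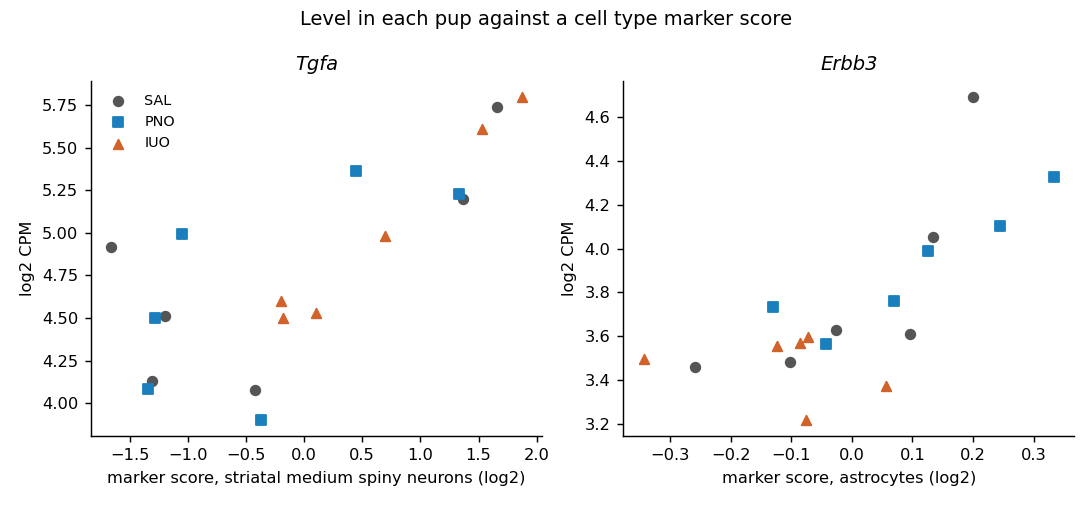
Log2 CPM of Tgfa against the striatal marker score, and of Erbb3 against the astrocyte score, in each of the 18 pups by group. Tgfa rises with the striatal score in each group (r = 0.76 over all pups), and the IUO pups lie low and flat in the Erbb3 plot (r = -0.26 within IUO).

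The remaining relations of members with marker lists that had an adjusted permutation p under 0.05 for r over the 100 were negative. Hbegf fell with the interneuron score (r = -0.74, rho = -0.66, adjusted p = 0.0177 for r and 0.0673 for rho, permutation test) and with the choroid plexus score (r = -0.70, rho = -0.71, adjusted p = 0.0234 and 0.0377). Nrg2 fell with the choroid plexus score (r = -0.67, rho = -0.69, adjusted p = 0.0341 and 0.0478, permutation test). The r of Nrg2 with oligodendrocyte precursors was -0.64 (adjusted p = 0.0525, permutation test). Btc fell with the excitatory neuron score (r = -0.70, rho = -0.65, adjusted p = 0.0234 and 0.0673, permutation test). Each of these 5 had the same sign within SAL, PNO and IUO, from -0.54 to -0.86 for Hbegf and interneurons, and kept it without the 2 farthest pups, where r was -0.64 and -0.70 for Hbegf, -0.56 and -0.51 for Nrg2 and -0.62 for Btc. Hbegf also had r = -0.58 with the striatal score (rho = -0.57, adjusted p = 0.129 for r, permutation test). Its relations with the interneuron and the striatal score were not separated.

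**Figure D5:**
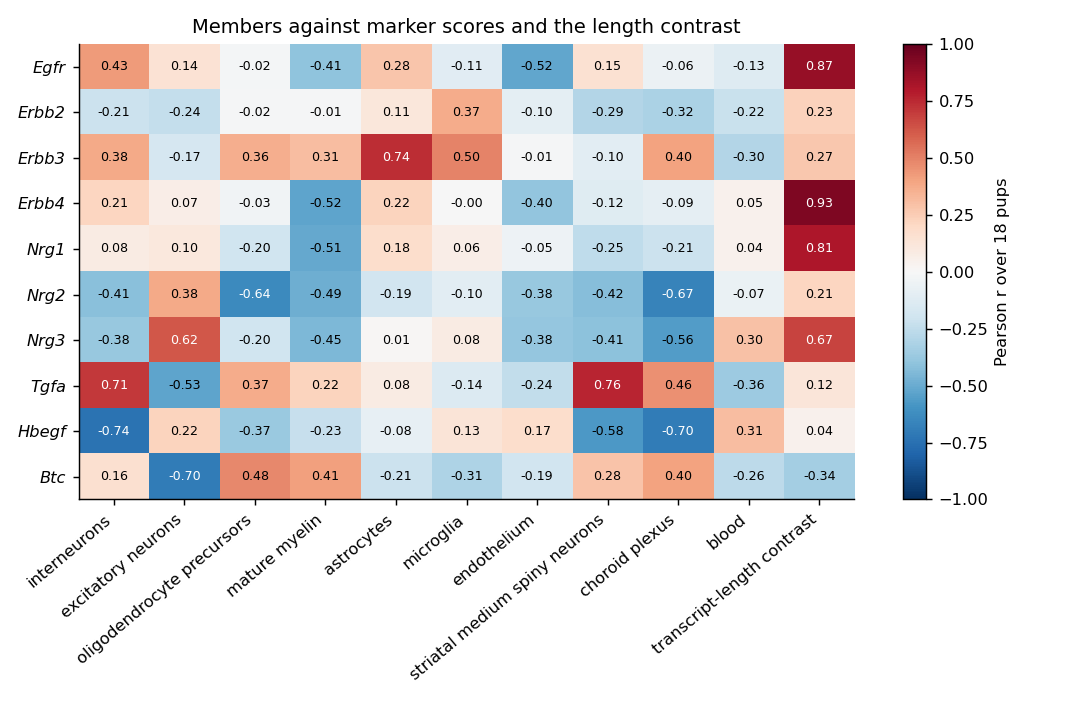
Pearson r over the 18 pups of each member (rows, log2 CPM) with the 10 marker scores and the contrast of long minus short transcripts (columns), on a colour scale from -1 to 1. The right column shows Erbb4 (0.93), Egfr (0.87), Nrg1 (0.81) and Nrg3 (0.67) rising with the contrast, and the striatal column shows Tgfa (0.76).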

How the data were processed

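Total RNA of whole PFC pieces was made into TruSeq V2 libraries and sequenced as 75-base single reads. The authors deposited, for each pup, a gene table with expected counts (estimated counts, which need not be whole numbers), TPM and FPKM. FPKM, as deposited, was not used. The aligner, counting tool, genome build and strand setting are not given in the sources used here, so the only coordinates printed are those of RefSeq promoter windows (GRCr8), and reads of overlapping or antisense genes may not be separable. Expected counts were rounded to whole numbers. With edgeR 4.0.16 in R 4.3.3, 15703 of 32623 genes passed filterByExpr by group, TMM factors were computed, and a quasi-likelihood model of group over all 18 pups (15 residual degrees of freedom) gave two-sided p-values, adjusted by Benjamini-Hochberg over all genes tested. Genes were called at an adjusted p under 0.05. CPM are TMM-normalised, with 2 as the prior count on the log2 scale. The 95% intervals are the log2 fold change with t quantiles on 15 degrees of freedom. Since 10 of 10 members passed the filter, the permutation test planned for members below it was not needed. Relations used 100000 two-sided permutations. The script for the fit was tested on simulated data. The members, lists and scores were chosen with earlier results of these data known. The rule named all members, the pathway gene of smallest p per list and comparison, and the 3 genes most like each member, of which some are not reported here. Alternatives were other size factors, DESeq2 1.42.0, limma 3.58.1 (voom), other filters, fewer pups, a replicate block, score covariates and each pup left out. The transcript-length contrast, the fits that used it, the full set of 100 relations of members with marker lists and the relations within SAL without single pups were chosen after seeing the data. The marker genes Pecam1, Hba1 and Hbb-bs and the adaptor Crkl matched no row.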

Additional observations from a re-analysis of the deposited data

How the results depend on the processing

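No member was called in any comparison under any alternative, and the smallest adjusted p of a member was 0.0556 (Erbb3, IUO against PNO, limma-voom). In that comparison limma-voom also gave larger differences for Erbb4 (1.16, unadjusted p = 0.0111, adjusted p = 0.0645) and Egfr (0.60, unadjusted p = 0.0212, adjusted p = 0.0897). Genes called in all changed more. Against 0 for PNO against SAL, DESeq2 gave 1. Against 0 for IUO against SAL, DESeq2 gave 49, limma-voom 43 and the length contrast as covariate 10, and with pups left out the range was 0 to 1. Against 10 for IUO against PNO the count was 19 without composition normalization, 436 with DESeq2, 2028 with limma-voom, 72 with only the 12 pups compared, 4 with the myelin covariate, 65 with the striatal covariate, 105 with the length covariate, 222 without the 2 pups of highest length contrast (SAL pup 6 and PNO pup 1), and 1 (without PNO pup 4 or 6 or IUO pup 3) to 95 (without PNO pup 5) with pups left out. With the replicate number as a block, 6 genes were called there and 0 in the other comparisons. The numbers share nothing in the labels, and same-numbered pups deviated together with a mean r of 0.232 for PNO with SAL (lowest -0.059), -0.027 for IUO with SAL (lowest -0.134) and 0.063 for IUO with PNO (lowest -0.301), and 6, 1 and 4 of 12 pups correlated best with their own number. The paired fit turned Erbb4 in IUO against SAL to 0.38 and Btc in IUO against PNO to -0.035.

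Log2 fold changes of members, none of them called, changed sign as follows, and the cause was not tested. Without composition normalization they were -0.013 for Erbb3, -0.016 for Hbegf and -0.035 for Btc in PNO against SAL, and 0.020 for Nrg2 in IUO against PNO. With limma-voom they were 0.78 for Erbb4 in IUO against SAL and -0.061 for Btc in IUO against PNO. With the myelin covariate they were 0.36 for Erbb4, 0.10 for Nrg1, 0.036 for Nrg2 and -0.22 for Btc in PNO against SAL, -0.010 for Egfr and -0.12 for Nrg1 in IUO against SAL, and -0.66 for Erbb4, -0.22 for Nrg1 and -0.23 for Nrg3 in IUO against PNO. With the striatal covariate they were 0.20 for Erbb4, -0.14 for Tgfa, 0.077 for Hbegf and -0.10 for Btc in IUO against SAL, and 0.076 for Nrg2, -0.11 for Tgfa, 0.061 for Hbegf and -0.13 for Btc in IUO against PNO. With the length covariate, only a description for Egfr, Erbb4 and Nrg1 on which it was built, they were 0.058 for Egfr, 0.10 for Erbb4, 0.060 for Nrg1 and -0.066 for Btc in PNO against SAL, 0.25 for Erbb4 in IUO against SAL, and -0.0076 for Nrg1 and -0.066 for Nrg3 in IUO against PNO. Without the 2 pups of highest contrast they were 0.035 for Nrg2 and -0.084 for Btc in PNO against SAL, 0.83 for Erbb4, 0.0011 for Hbegf and -0.10 for Btc in IUO against SAL, and -0.015 for Btc in IUO against PNO. The values that kept their sign over the 12 alternatives ran from 0.019 to 0.61 for Egfr in IUO against PNO, -0.35 to -0.12, -0.57 to -0.36 and -0.45 to -0.11 for Erbb2 (PNO and IUO each with SAL, then IUO with PNO), -0.45 to -0.20 for Erbb3 in IUO against SAL and -0.58 to -0.37 in IUO against PNO, -0.24 to -0.034 for Nrg2 in IUO against SAL, 0.092 to 0.30 for Nrg3 in PNO against SAL and 0.070 to 0.37 in IUO against SAL, and -0.50 to -0.033 for Tgfa in PNO against SAL.

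With each pup left out in turn, fold changes in PNO against SAL ran from -0.53 to 0.021 for Egfr, -0.053 to 0.27 for Erbb3, -1.32 to 0.31 for Erbb4, -0.31 to 0.0075 for Nrg1, -0.25 to 0.15 for Tgfa, -0.040 to 0.091 for Hbegf and -0.14 to 0.15 for Btc. In IUO against SAL they ran from -0.091 to 0.35 for Egfr, -0.39 to 0.83 for Erbb4, -0.065 to 0.23 for Nrg1, -0.069 to 0.015 for Hbegf and -0.15 to 0.16 for Btc. In IUO against PNO they ran from -0.10 to 0.060 for Nrg2, -0.041 to 0.18 for Nrg3, -0.12 to 0.024 for Hbegf and -0.16 to 0.15 for Btc. Without a change of sign they ran from 0.16 to 0.61 for Egfr, -0.25 to -0.075 for Erbb2, 0.28 to 1.16 for Erbb4, 0.10 to 0.36 for Nrg1 and 0.12 to 0.46 for Tgfa in IUO against PNO, 0.085 to 0.33 for Nrg3, 0.018 to 0.46 for Tgfa, -0.16 to -0.062 for Nrg2 and -0.50 to -0.20 for Erbb3 in IUO against SAL, and -0.39 to -0.19 for Erbb2, 0.029 to 0.23 for Nrg3 and -0.18 to -0.019 for Nrg2 in PNO against SAL. Erbb2 in IUO against SAL and Erbb3 in IUO against SAL and against PNO kept their sign under all alternatives and left-out pups, with an unadjusted p under 0.05 in 10, 7 and 10 of 12 left-out fits by edgeR. These results were singled out by their unadjusted p in the full fit. The left-out fits share nearly all pups with it, so the counts are no separate support. Of the planned relations, signs within a group turned for Egfr and oligodendrocyte precursors in PNO (r = 0.68), Erbb2 and myelin in IUO (0.34, and 0.45 without the farthest pups), Erbb3 and myelin in SAL (-0.68, and 0.47 without SAL pup 6), Erbb4 and interneurons in IUO (-0.46), Erbb4 and striatal neurons in PNO (0.073), and for excitatory neurons in PNO with Nrg1 (-0.49) and Nrg3 (-0.11). Btc and Erbb2 had the lowest counts of the members, with medians of 36 and 64.5 counts per pup.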
